A study of Mus musculus with 2 samples.

Results

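The 10 circadian clock genes Per1, Per2, Per3, Cry1, Cry2, Arntl, Clock, Bhlhe41, Nr1d1 and Dbp were examined for open chromatin in mouse calf muscle. They were chosen by name for their known role in the clock and are 10 of the 21938 protein-coding genes of the GENCODE M21 annotation (chromosomes 1 to 19, X and Y, mm10). For each gene, a promoter peak was a DNase-seq peak within 1 kb of any annotated start site of that gene. A distal peak lay more than 1 kb from every start site of a protein-coding gene and within 50 kb of a start site of the clock gene.

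In the mammalian clock, ARNTL (BMAL1) and CLOCK form a heterodimer that binds E-boxes and activates the Per and Cry genes, Nr1d1, Bhlhe41 and Dbp. PER and CRY proteins return to the nucleus and repress that heterodimer, while NR1D1 (REV-ERB alpha) represses Arntl through ROR elements that the ROR receptors use to activate it. DBP acts at D-boxes, present in Per genes among others, and skeletal muscle holds a clock of this kind that times genes of fuel use.

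DNase-seq maps the sites at which the enzyme DNase I cuts DNA in nuclei, such as active promoters and enhancers. The 2 libraries came from the gastrocnemius, the large muscle of the calf, of B6CASTF1/J females, a first-generation cross of C57BL/6J and CAST/EiJ, at 10 days of age. Both libraries belonged to 1 group, labelled biological replicates 1 and 2. Each was made from the pooled tissue of 3 females, and there was no other genotype, treatment, age or time point. The labels give no time of day of collection, which matters for genes that cycle over the day, so each value below describes an unstated phase.

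The peak list used held 114758 peaks in replicate 1 and 26804 in replicate 2. For a comparison at equal number, the 26804 tallest peaks of replicate 1 were also taken. Peak height is the authors' depth-normalized signal, and its scale is not given in the sources used here. Distinct heights below 100 steps were whole multiples of 0.00597 in replicate 1 and of 0.0107 in replicate 2, within 0.05 of a step, and the ratio of these steps was 1.80. If 1 step is 1 read on a common scale, replicate 1 was the deeper library by that ratio. The median height over all peaks was 1.18 and 1.48, but over promoter peaks alone 2.12 and 1.62, so heights were read as ranks within a library. With 2 libraries and no second group, no test between conditions was possible, and the difference between the libraries was itself the replicate spread. Of all protein-coding genes, 66.7% had a promoter peak in replicate 1, 51.4% in replicate 2 and 51.0% in both. Of 10 skeletal muscle markers, 5 had a promoter peak in replicate 1, 3 in replicate 2 and 2 (Ckm and Actn3) in both. Tnnt3, Tnnc2, Myog and Des had a promoter peak in neither. The heights at Actn3, 14.7 and 5.02, are also those of the gene Zdhhc24, so they do not stand for Actn3 alone. Of 4 neuron markers, 4 had a promoter peak in replicate 1 and 3 in replicate 2, with heights of 6.44 to 16.1 and of 0.654 to 1.60. Of 3 endothelial markers 1 had a peak in both, and of 3 macrophage markers 0 had a peak in either. The part of such other cells in the clock genes' peaks was not tested, and in bulk tissue fewer open cells and less opening per cell cannot be told apart.

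All 10 clock genes had a promoter peak in replicate 1, where 66.7% of protein-coding genes had a promoter peak. All 10 also had such a peak among the tallest peaks of replicate 1 (49.6% of genes) and in replicate 2 (51.4% of genes), and hence in both libraries (51.0% of genes). At all 10 a promoter peak of replicate 1 was shared, meaning that a peak of replicate 2 overlapped at least 50% of either peak of the pair (45.1% of genes). With the tallest peaks of replicate 1 set against replicate 2, all 10 again had a promoter peak in both of those lists (44.4% of genes). All 10 also had a shared one there, as had 8237 of the 21938 genes. When 50% of both peaks had to overlap, 8 genes kept a shared promoter peak (26.6% of genes), and Per3 and Cry2 lost theirs. At Per1, Cry1, Clock, Bhlhe41 and Dbp the tallest promoter peak of replicate 1 was not shared by this rule either. These genes kept a shared peak through another of their promoter peaks. At Per3, Cry1, Arntl, Clock, Bhlhe41 and Dbp 2 or more promoter peaks of replicate 1 were shared, which held for 14.1% of all genes. These genes have 3 (Per3) to 6 (Arntl) annotated start sites, and each start site widens the stretch searched. Neither this share nor the other values over all genes were matched for the number of start sites.

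The tallest promoter peaks of the clock genes ranged from 6.28 (Bhlhe41) to 21.4 (Per2) in replicate 1, with a median of 14.7. In replicate 2 they ranged from 1.59 (Arntl) to 5.07 (Cry1), with a median of 2.37. Over all genes with a promoter peak the medians were 6.30 and 2.03, and 9 of the 10 clock genes ranked above the middle of those genes in replicate 1 (all but Bhlhe41) and 9 in replicate 2 (all but Arntl). Among the tallest peaks of replicate 1 it was 8, with Clock and Bhlhe41 below the middle. The height in replicate 1 over that in replicate 2 had a median of 6.45 over the 10 genes and of 3.93 over the 11183 genes with a peak in both libraries. It ran from 2.90 at Bhlhe41 and 2.97 at Cry1 to 9.04 at Arntl and 9.51 at Cry2. At Per1, Bhlhe41 and Dbp these tallest peaks lay at different places. Taken from the tallest peak of replicate 1 to its shared partner, the ratio was 3.83 at Bhlhe41 and 11.9 at Dbp, and at Per1 there was no shared partner.

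**Figure D1:**
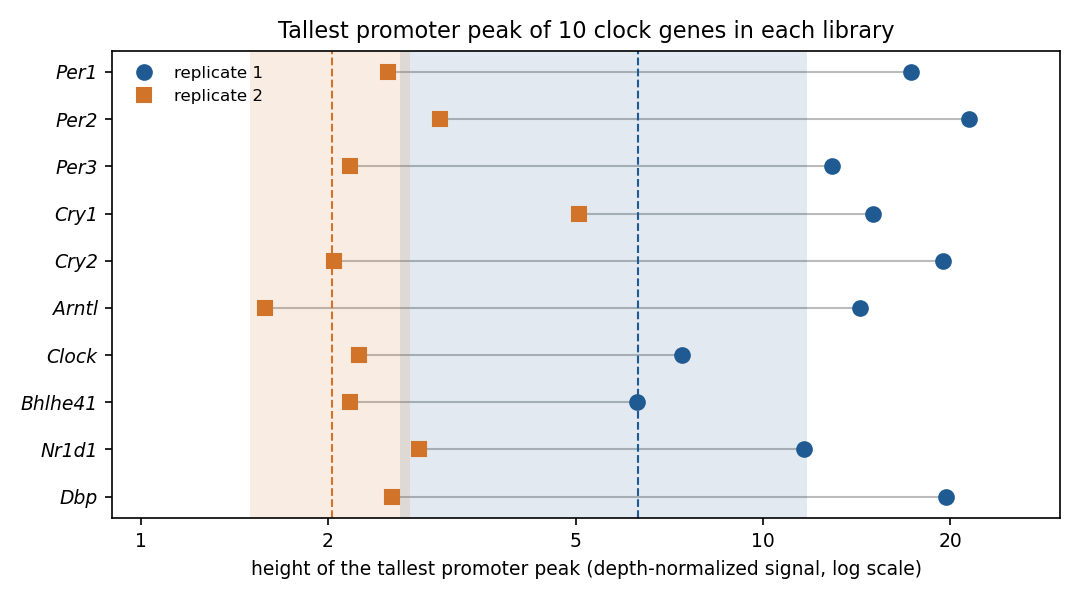
Height of the tallest promoter peak of each clock gene (horizontal axis, the authors' depth-normalized signal on a log scale) in replicate 1 (blue circles) and replicate 2 (orange squares). Dashed lines and shaded bands are the median and the range between quartiles of all genes with a promoter peak in that library; 9 of the 10 blue circles lie right of the blue line at 6.30, and Bhlhe41 at 6.28 lies on it.

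Ranks within each library were then set side by side. The percentile among genes with a promoter peak was 95.8 in replicate 1 and 81.9 in replicate 2 for Per2, 89.97 and 68.6 for Per1, 93.9 and 69.5 for Dbp, and 79.3 and 55.8 for Per3, each lower in replicate 2. Cry1 stood at 85.0 in replicate 1 and at 98.1 in replicate 2, rank 215 of the 11284 genes with a promoter peak. Arntl stood at 83.3 and 28.6, and Cry2 at 93.7 and 50.7, the widest gaps of the 10. Clock (55.8 and 59.1), Bhlhe41 (49.8 and 55.8) and Nr1d1 (74.6 and 77.0) stood at similar percentiles in the whole lists. At equal number, among the tallest peaks of replicate 1, they stood at 40.6, 32.5 and 65.9, each lower than in replicate 2. Per2, Per1, Dbp and Per3 stood at 94.4, 86.5, 91.7 and 72.2 there, still higher than in replicate 2.

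**Figure D2:**
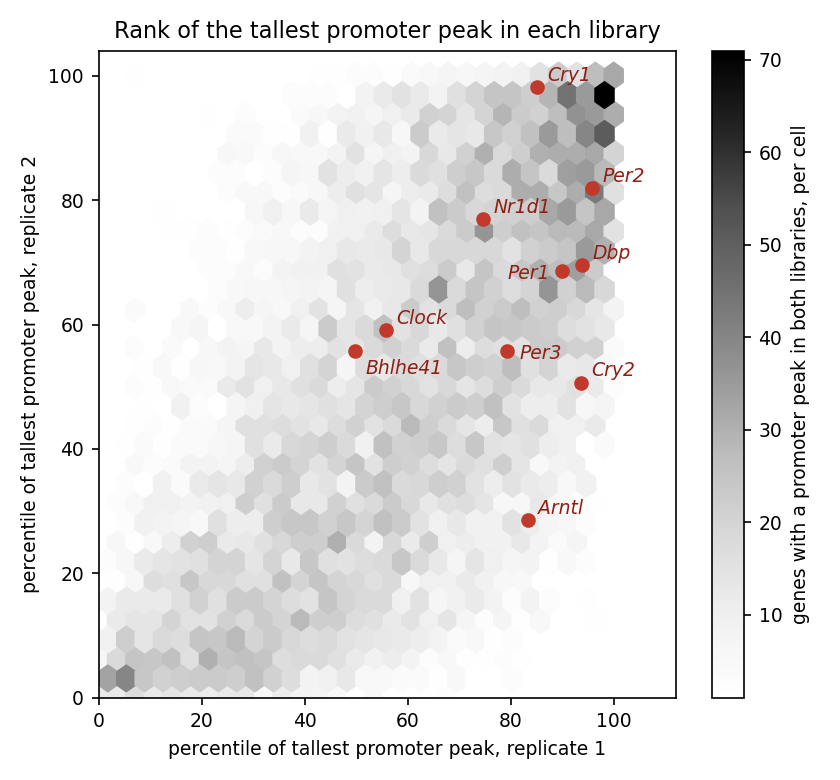
Percentile of the tallest promoter peak among all genes with a promoter peak, in replicate 1 (horizontal axis) and replicate 2 (vertical axis). Red points are the 10 clock genes and grey cells count the genes with a promoter peak in both libraries; Cry1 lies highest at 98.1 in replicate 2 and Arntl lowest at 28.6.

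Arntl and Clock encode the activating pair. Arntl (chr7:113207465-113314126, plus strand) had 3 promoter peaks in replicate 1 and 4 in replicate 2. The tallest of replicate 1, 420 bp wide and 14.4 high, lay mostly upstream of the first start site and reached over it, and its partner in replicate 2 was 541 bp wide and 1.59 high. A further pair lay in an intron, with heights of 2.02 and 1.14. In replicate 2 the taller peak ended short of the first start site, and a further peak 1.30 high covered that site and held a match to the ROR element at 16 bp downstream of an annotated start site. It is shown because ROR elements are the known route by which REV-ERB and ROR proteins act on this gene. The capitals mark the match, from 113207537 to 113207547, which lies in no promoter peak of replicate 1. A footprint of replicate 2, from 113207529 to 113207538, reached only the first bases of the match, which was thus not inside a footprint. Sequences here and below are those of the GRCm38 reference, which is C57BL/6J, so CAST/EiJ alleles were not read, and a match is a match of letters only. The stretch is chr7:113207528-113207556 (plus strand, 5′ UTR).
Arntl start site: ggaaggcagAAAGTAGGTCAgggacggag

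Clock (chr5:76209868-76304792, minus strand) had 3 promoter peaks in replicate 1 and 5 in replicate 2, of which 3 in replicate 2 overlap each other. The peak at the start site had a height of 7.42 in replicate 1 and its partner 2.24 in replicate 2. A second peak began at position 76303881 in both libraries, in an intron, with heights of 5.75 and 1.50. That intronic peak held an E-prime box, a close variant of the E-box, at 551 bp downstream of the nearest start site and a ROR element at 524 bp. The sequence (chr5:76303979-76304044, minus strand) is shown because an E-prime box and a ROR element stand near each other in a peak with the same start in both libraries. Capitals mark the matches. The E-prime box was inside a footprint in replicate 1 and in none in replicate 2.
Clock intronic peak: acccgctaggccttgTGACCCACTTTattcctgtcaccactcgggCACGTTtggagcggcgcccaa

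The main repressors are the cryptochromes and the period proteins. Cry1 (chr10:85131700-85185064, minus strand) had the tallest promoter peak of the 10 genes in replicate 2, 5.07 high at chr10:85185081-85185380. The peak of replicate 1 that overlapped it was 15.0 high at chr10:85185001-85185180. A second peak of replicate 1, 13.95 high and 257 bp from the start site, had no shared partner. In the overlap of the tall pair lay an E-box at -48 bp from the start site and an E-prime box at -67 bp. The E-box lay in a footprint of replicate 1 from 85185104 to 85185120 and in a footprint of replicate 2 from 85185104 to 85185124, which share their first base. A footprint is a short stretch within open chromatin with fewer cuts than around it, as a bound protein leaves. The E-prime box was in no footprint of either library. The sequence (chr10:85185084-85185158, minus strand) carries both in capitals, the E-prime box first, in the reverse orientation.
Cry1 promoter: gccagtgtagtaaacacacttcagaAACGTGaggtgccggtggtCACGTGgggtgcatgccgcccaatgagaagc

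Cry2 (chr2:92403646-92434043, minus strand) had a tallest promoter peak of 19.5 in replicate 1 and of 2.05 in replicate 2. The peaks were 180 and 301 bp wide and overlapped at their edges, and the pair was lost when 50% of both had to overlap. The overlap held an E-prime box at -190 bp that was inside a footprint in both libraries. Inside the gene, 8441 bp downstream of the nearest start site, an intronic peak was called in both libraries with heights of 3.66 and 1.85. That peak held E-boxes at 8469 and 8522 bp. The E-box at 8522 bp was in a footprint in both libraries, although the narrower peak of replicate 2 ended short of it, and the E-box at 8469 bp was in a footprint of replicate 2. The promoter stretch (chr2:92434210-92434255) and the intronic stretch (chr2:92423847-92423945), both on the minus strand, are shown for these matches, which are in capitals.
Cry2 promoter: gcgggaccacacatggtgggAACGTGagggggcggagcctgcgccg
Cry2 intronic peak: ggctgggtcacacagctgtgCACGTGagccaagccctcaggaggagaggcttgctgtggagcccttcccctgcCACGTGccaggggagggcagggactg

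Per1 (chr11:69095217-69109960, plus strand) has 6 annotated start sites and had 4 promoter peaks in replicate 1 and 2 in replicate 2. At the first start site the peak of replicate 1 was 400 bp wide and 17.3 high (chr11:69094821-69095220), upstream of the site. The peak of replicate 2 there was 255 bp wide and 2.24 high (chr11:69095166-69095420) and lay mostly downstream, so the pair did not count as shared. At the second promoter, inside the gene, the peaks of 13.8 and 2.50 nearly coincided and were shared. Each promoter held an E-box in a footprint: at -147 bp from the first start site in footprints of both libraries, although in replicate 2 outside any peak, and at -162 bp from the second in a footprint of replicate 1. A further E-box at -331 bp was in a footprint of replicate 1.

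Between both Per1 promoters lay a peak that the 1 kb limit counts as distal, with heights of 4.39 and 3.96 and a percentile of 97.1 among all peaks of replicate 2. It held a cyclic AMP response element (CRE), the site of CREB proteins, through which Per1 is known to be induced. The CRE at -1742 bp from the second promoter overlapped a footprint in both libraries. No promoter peak of the 10 genes held a CRE, which 4.54% of genes with a promoter peak had in replicate 1 and 3.7% in replicate 2. The Per1 stretches are chr11:69095037-69095102, chr11:69098753-69098818 and chr11:69097172-69097239, on the plus strand, with the E-boxes and the CRE in capitals.
Per1 first promoter: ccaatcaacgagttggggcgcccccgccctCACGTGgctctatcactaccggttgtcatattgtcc
Per1 second promoter: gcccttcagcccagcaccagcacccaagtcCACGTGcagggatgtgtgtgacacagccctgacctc
Per1 upstream CRE: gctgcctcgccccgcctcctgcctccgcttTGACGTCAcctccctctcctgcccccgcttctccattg

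Per2 (chr1:91415982-91459324, minus strand) had the tallest promoter peak of the 10 genes in replicate 1. Its height was 21.4 in replicate 1 (chr1:91459321-91459640) and 3.02 in replicate 2 (chr1:91459041-91459640), and both peaks ended at the same upstream base. A footprint 40 bp wide in replicate 1 (91459405 to 91459444) and a footprint 39 bp wide in replicate 2 (91459405 to 91459443) differed by 1 bp. A D-box at -122 bp ran across the upstream edge of that footprint. An E-prime box lay at 7 bp downstream of the start site, in the peak of replicate 2 and in a footprint of replicate 1 that was not wholly inside its peak. The D-box stretch (chr1:91459412-91459479) and the start site (chr1:91459304-91459329, partly 5′ UTR), on the minus strand, are shown for this footprint and this E-prime box.
Per2 promoter: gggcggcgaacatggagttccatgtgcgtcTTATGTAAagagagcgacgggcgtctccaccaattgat
Per2 start site: cgcgcgcggtCACGTTttccactatg

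Per3 (chr4:151003652-151044665, minus strand) had a promoter peak 12.9 high and 380 bp wide in replicate 1 and a peak 2.17 high and 840 bp wide in replicate 2. The wide peak of replicate 2 spans the narrow one, so at 50% of both the pair was lost. The shared stretch held D-boxes at -155 and -202 bp, the first of them in a footprint of replicate 1 and neither in a footprint of replicate 2. Per2 and Per3 were the 2 clock genes with a D-box in a promoter peak. The sequence (chr4:151044796-151044890, minus strand) shows both D-boxes, which have the same letters.
Per3 promoter: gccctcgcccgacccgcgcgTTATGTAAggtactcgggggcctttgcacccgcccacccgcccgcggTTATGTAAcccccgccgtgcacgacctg

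Nr1d1 and Bhlhe41 encode the repressors of the side loops, REV-ERB alpha and DEC2. Nr1d1 (chr11:98767932-98775333, minus strand) had 1 promoter peak in each, 11.6 high and 220 bp wide in replicate 1 and 2.80 high and 360 bp wide in replicate 2, the narrow peak wholly inside the wide. All 3 footprints of replicate 1 in that peak overlapped a footprint of replicate 2, and 3 of 4 the other way. The most upstream shared pair ran from 98775411 to 98775433 and from 98775410 to 98775432, 23 bp in each. An E-prime box at -70 bp stood next to it, outside the footprints.

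In an intron of Nr1d1 a peak was shared with heights of 6.29 and 2.82. It held an E-box at 1176 bp and a D-box at 1249 bp downstream of the start site, both in footprints of replicate 1 and in none of replicate 2. An E-box at 1456 bp, in the peak of replicate 1 only, was in a footprint of replicate 2 and in none of replicate 1. A further shared peak at -11728 bp, in intergenic sequence, was 7.72 and 4.58 high, the latter at percentile 98.5 of all peaks of replicate 2. The stretches shown are chr11:98775380-98775425 and chr11:98774065-98774174, on the minus strand, the first with its E-prime box and the second with its E-box and then its D-box in capitals.
Nr1d1 promoter: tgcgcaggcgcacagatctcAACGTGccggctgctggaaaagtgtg
Nr1d1 intronic peak: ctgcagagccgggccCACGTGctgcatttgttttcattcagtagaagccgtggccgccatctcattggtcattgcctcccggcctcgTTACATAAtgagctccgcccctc

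Bhlhe41 (chr6:145858243-145865558, minus strand) had the lowest tallest promoter peak in replicate 1, 6.28, and its tallest in replicate 2 was 2.17. The tallest peaks were at different places. In replicate 1 it covered the start site, where replicate 2 had a peak of 1.64, and in replicate 2 it lay further upstream, where it overlapped a peak of 1.47 in replicate 1. It also overlapped a peak of 5.18 in replicate 1 that lay too far upstream to count as a promoter peak and held the more distant of the E-boxes. E-boxes lay at -13 and -1202 bp, and none of the E-boxes or E-prime boxes in these promoter peaks was in a footprint of either library. A peak downstream of the gene was taller than its promoter peaks in both libraries, 10.3 in replicate 1 and 3.45 in replicate 2, with the same start base, 145855741. This intergenic peak held E-boxes at 9434 and 9408 bp downstream of the nearest start site, and the E-box at 9434 bp was in a footprint in both libraries. Its sequence (chr6:145855845-145855916, minus strand) is shown for this pair, in capitals, the E-box at 9408 bp first.
Bhlhe41 distal peak: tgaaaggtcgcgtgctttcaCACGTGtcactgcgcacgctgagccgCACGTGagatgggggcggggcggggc

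Dbp encodes the output regulator DBP, which binds D-boxes. The gene (chr7:45705088-45710203, plus strand) is 5116 bp long and had 6 promoter peaks in each library, of which 3 were shared. At the first start site the heights were 19.7 in replicate 1 and 1.66 in replicate 2, the latter a peak only 57 bp wide. Near the last start site, inside the gene, the heights were 9.19 and 2.53, so the place of the tallest peak differed between the libraries. The internal peak of replicate 1 held E-boxes at -174 and -61 bp and an E-prime box at -112 bp. That of replicate 2 ended short of the E-box at -61 bp and held the others. The E-prime box was in a footprint in both libraries and the E-box at -174 bp in a footprint of replicate 1. The peak at the first start site held a ROR element at -188 bp, in no footprint. The sequences (chr7:45704875-45704925 and chr7:45707697-45707845, plus strand) are shown because the clock motifs of Dbp lie near its first start site and near its last, inside the gene.
Dbp first promoter: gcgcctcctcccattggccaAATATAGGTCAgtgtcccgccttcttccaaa
Dbp internal promoter: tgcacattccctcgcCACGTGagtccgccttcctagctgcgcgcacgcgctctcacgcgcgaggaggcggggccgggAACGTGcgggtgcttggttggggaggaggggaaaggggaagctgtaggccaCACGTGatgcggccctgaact

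**Figure D3:**
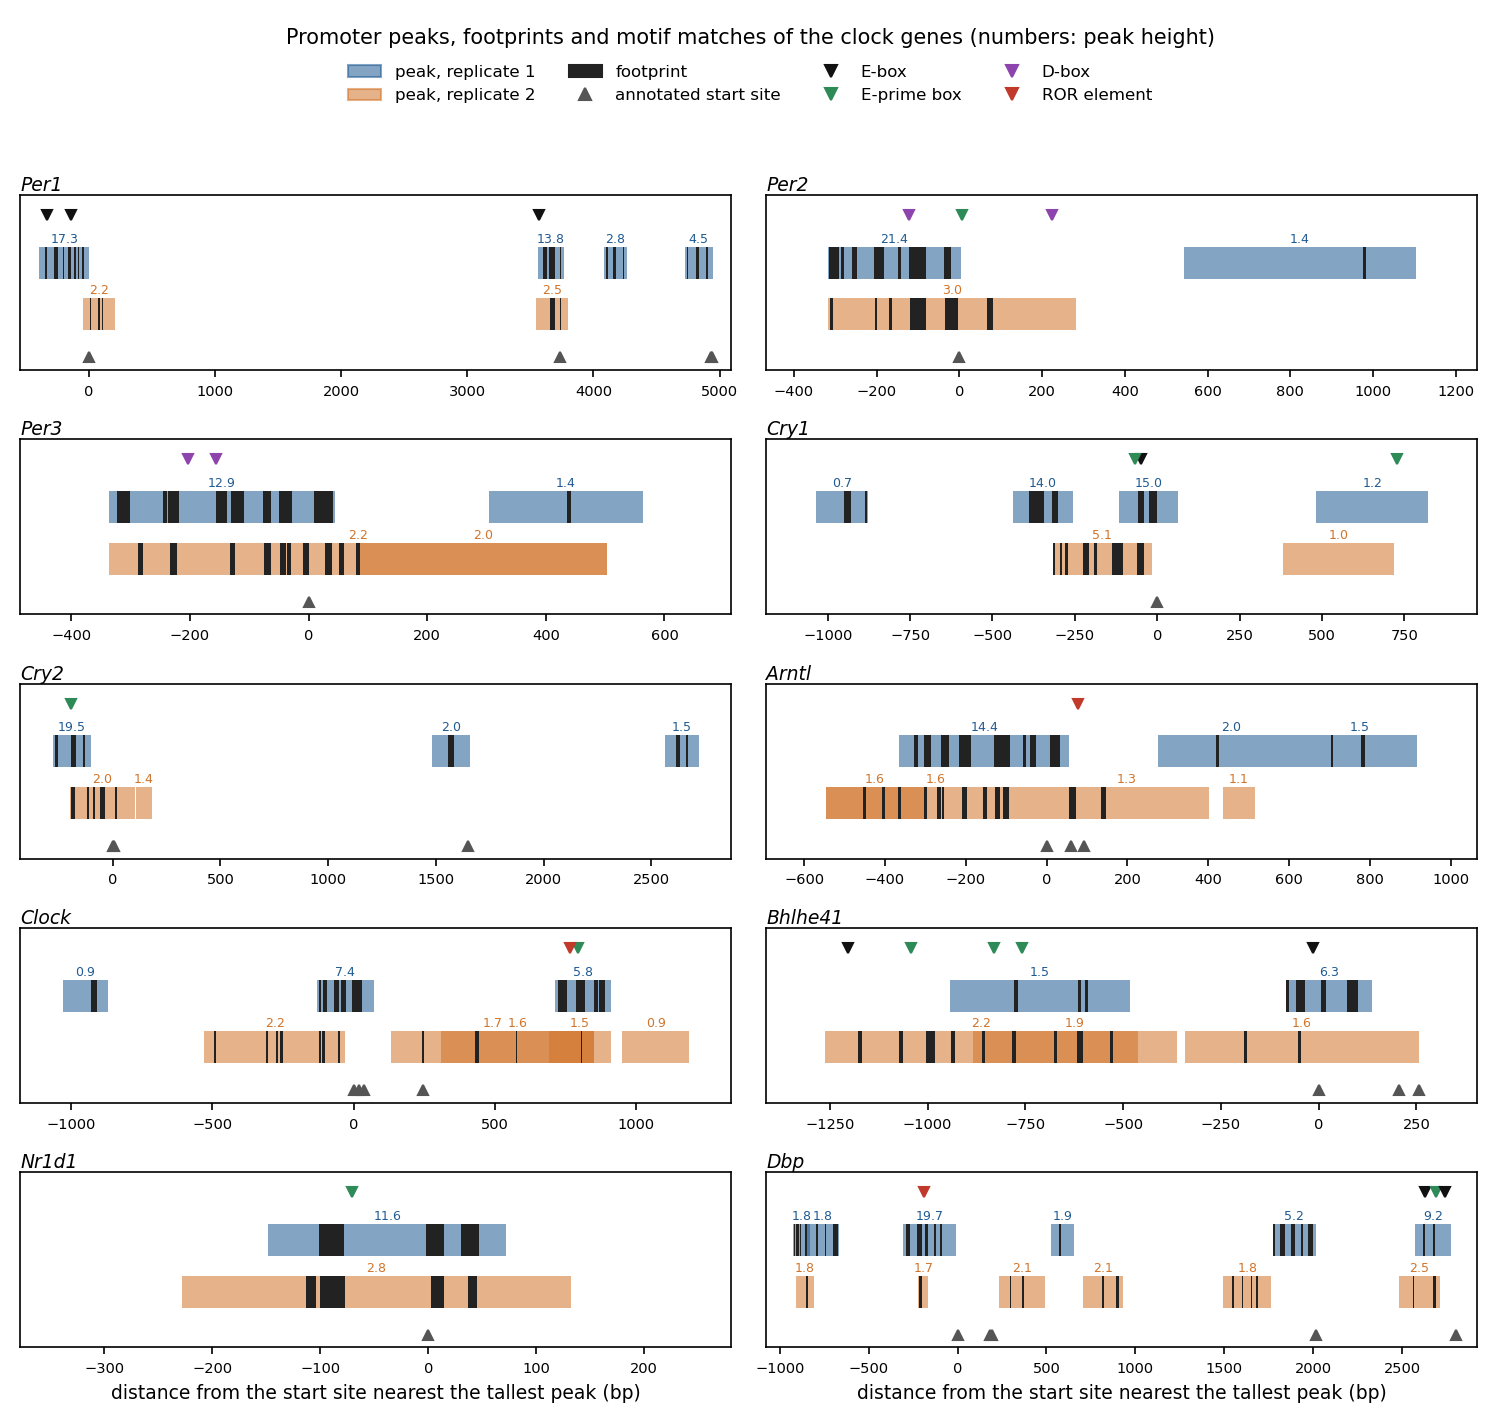
Promoter peaks (blue, replicate 1; orange, replicate 2, darker where peaks of the list overlap) with their heights, footprints (black), annotated start sites (grey) and motif matches (triangles above) of each clock gene. The horizontal axis is the distance in bp from the start site nearest the tallest peak of replicate 1; at Nr1d1 the 3 footprints of replicate 1 recur in replicate 2, while at Per1 the peaks at the first start site overlap only at their ends.

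Over the 10 genes, E-boxes (CACGTG) were in a promoter peak of 4 in each library: Per1, Cry1, Bhlhe41 and Dbp. Of all genes with a promoter peak, 14.9% held an E-box there in replicate 1 and 13.1% in replicate 2. E-prime boxes (CACGTT) were found at 6 clock genes in replicate 1 (8.61% of genes) and at 7 in replicate 2 (9.98% of genes). D-boxes (TTANGTAA) were found at 2 (1.1% of genes) and 2 (1.22%), and ROR elements at 2 (0.314%) and 3 (0.204%). With 10 genes, 1 gene more or fewer moves a share by 10 percentage points. A gene with more or wider promoter peaks has more sequence searched, and the shares over all genes were not matched for that length. The tallest promoter peak alone had a median width of 260 and 430 bp at the clock genes, against 220 and 320 bp over all genes with a promoter peak. Motifs were searched on both strands and counted where they lay wholly inside a peak, and none of the motifs spelled out here contains another. Arntl was the gene with neither an E-box, an E-prime box nor a D-box in a promoter peak.

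Motifs of general promoters were common. The GC box (GGGCGG), bound by SP proteins, was found at 9 and 8 clock genes (74.7% and 72.2% of genes), Nr1d1 being without it in both libraries. The CCAAT box (CCAAT), bound by NF-Y, was found at 8 and 10 (45.7% and 40.1% of genes). The MyoD E-box (CAGCTG), the preferred site of the muscle regulator MyoD, was found at 1 and 4 (28.5% and 23.6%). An AP-1 site (TGANTCA) was found at 1 and 1 (5.62% and 5.28%), and a glucocorticoid element at Per1 in replicate 1 (0.499%) and at none in replicate 2 (0.532%).

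In RefSeq promoter windows of GRCm38.p6, from 250 bases before to 50 after a start, 9 of the 10 genes were matched, with 13 windows. Of these, 3 held an E-box, 3 an E-prime box, 1 a D-box, 1 a ROR element and 0 a CRE. Over all 32851 windows of the same length the shares were 7.15%, 4.68%, 2.32%, 0.384% and 1.79%. Windows of 1 gene overlap, so they are not independent.

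Footprints were called at all 10 clock genes in both libraries (99.2% and 96.1% of genes with a promoter peak). There were 102 in the promoter peaks of replicate 1 and 86 in those of replicate 2, a median of 8.5 per gene in each, where the median gene had 6 and 5. Per 100 bp of promoter peak the clock genes had a median of 1.26 and 1.12 footprints and all genes 1.44 and 1.12. Among the tallest peaks of replicate 1 it was 1.91 against 1.82, so per length the clock genes were not higher in every list. Dbp had 21 and 13 footprints and Per1 20 and 6, while Nr1d1 had 3 and 4. Of the 102 footprints of replicate 1, 33 overlapped a footprint of replicate 2 in these peaks, and 34 of 86 the other way. These are 32.4% and 39.5%, beside 25.6% and 36.7% over all genes with a promoter peak in both libraries. Their median width was 15.5 and 9 bp.

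The E-box matches in footprints can be set beside all promoter peaks. Of 7 E-box matches in promoter peaks of the clock genes in replicate 1, 5 were inside a footprint with 5 bp on each side, and of 5 in replicate 2, 1 was. Over all promoter peaks 33.0% and 17.3% of E-boxes were inside such footprints, which covered 34.0% and 22.1% of the bases. Of E-prime boxes, 3 of 8 and 2 of 9 were inside, against 21.9% and 13.3%. A footprint names no protein, and these counts are small.

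At the median, the tallest promoter peak of the clock genes sat further upstream than that of all genes, but not at each clock gene. The midpoint of the tallest peak lay at a median of -150 bp from the nearest start site in replicate 1 and -113.5 bp in replicate 2, against -31 and -4 bp over all genes. It was upstream at 9 of 10 clock genes in each library, where 69.9% and 52.2% of all genes had it upstream. In replicate 1 the exception was Bhlhe41 (27 bp) and in replicate 2 Per3 (84 bp). Cry1 (-27 bp), Clock (-29 bp) and Nr1d1 (-38 bp) lay near the median of all genes in replicate 1. In replicate 2 Cry2 (-47 bp) and Nr1d1 (-48 bp) were among those between the quartiles of all genes, -109 and 80 bp.

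The interval files, which give a false discovery rate (FDR) of at most 0.05 for short stretches, showed the same genes from another side. The lowest FDR within 1 kb of a start site was 1.92e-304 at Per2 in replicate 1, and 2.06% of genes had a lower value. In replicate 2 it was 5.03e-44 at Cry1, where 0.438% of genes had a lower value, and next 2.92e-20 at Clock (7.84%). At Per1 it was 1.9e-97 in replicate 1 but 4.42e-06 in replicate 2, the weakest of the 10 there. The listed stretches covered a median of 36.5% and 24.2% of the clock genes' windows, against 16.4% and 7.82% over all genes. Bhlhe41 (57.2% and 63.8%) and Dbp (57.8% and 62.2%) were covered over more than 50% of their windows in both libraries. The windows differ in length, from 2257 bp at Bhlhe41 to 8096 bp at Arntl. Bhlhe41 had 1290 and 1439 listed bases, fewer than the 2065 and 1529 of Arntl.

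CpG content differed within the set. The observed over expected CpG ratio within 500 bp of the start had a median of 0.828 over the clock genes, 0.590 over all genes and 0.758 over genes with a promoter peak in both libraries. Cry1 (1.01) and Per2 (1.00) were highest. Nr1d1 (0.438) and Per1 (0.625) were lowest, at percentiles 7.01 and 22.4 of the genes with a peak in both libraries. The part of CpG content in the peak heights was not tested.

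Distal peaks were found at 9 of the 10 genes in each of the lists used, while Clock had 0 in these. Over all genes 84.0% had a distal peak in replicate 1, 44.3% in its tallest peaks and 40.1% in replicate 2. The 10 genes together had 117 distal peaks in replicate 1, 41 among its tallest and 28 in replicate 2, each counted for 1 clock gene. This is a mean of 11.7, 4.1 and 2.8 per gene, against 4.93, 1.02 and 0.827 over all genes, and a median of 10.5, 2.5 and 1.5 against 4, 0 and 0. Of the 117, 24 were shared with replicate 2, or 20.5%, against 11.5% of distal peaks summed over all genes; at the 9 genes other than Per1 it was 12 of 86. At 9 of 10 genes at least 1 was shared (35.5% of all genes).

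The counts were uneven. Per1 had 31 distal peaks in replicate 1 and 13 in replicate 2, and 12 of the 24 shared ones were at this gene; without Per1 the other 9 genes had 15 in replicate 2 and 12 shared. Nr1d1 came next with 22 and 4, but 2 were shared. Arntl had 15 and 1, Per2 13 and 3, Bhlhe41 11 and 2, and Cry2 10 and 2. Dbp (7 and 1), Per3 (5 and 1) and Cry1 (3 and 1) had few, and at each of these 1 was shared.

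**Figure D4:**
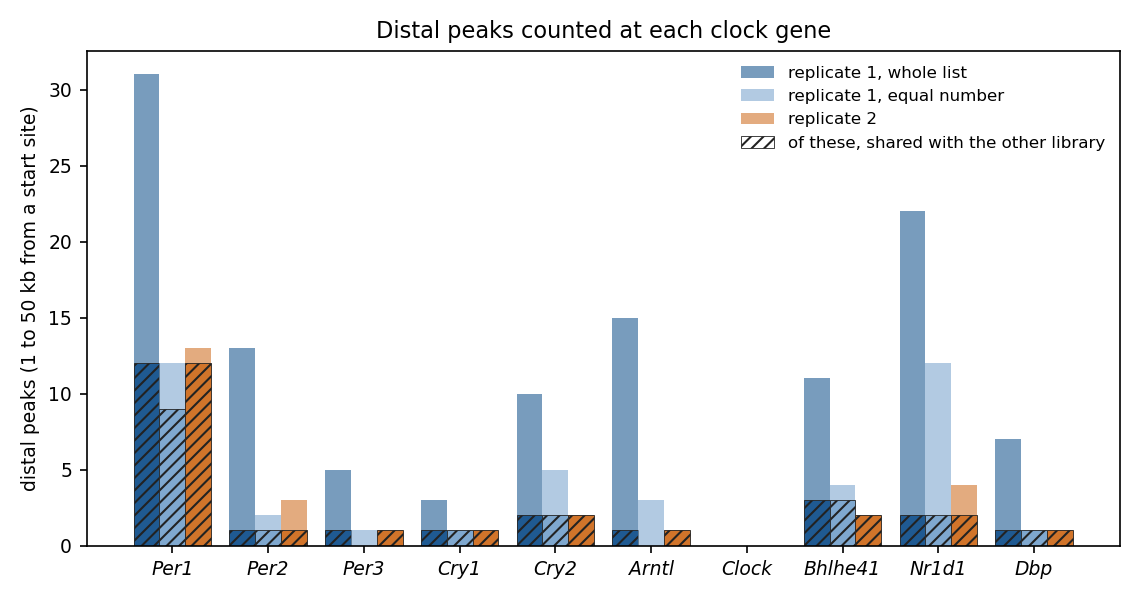
Number of distal peaks (vertical axis) of each clock gene in the whole list of replicate 1, in its tallest 26804 peaks and in replicate 2. Hatched parts are shared with the other library; Per1 has 12 shared distal peaks, the other genes 0 to 3.

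Many of these peaks lay nearer to another gene. Of Nr1d1's 22 in replicate 1, 17 were nearer to a start site of another gene. Introns of the thyroid hormone receptor gene Thra held 8 of the 22. Of Per1's 31, 21 were nearer to another gene, and so were 7 of 7 at Dbp, where 9 other genes start within 50 kb. Of Arntl's 15, 0 were nearer to another gene and 13 lay within Arntl itself. The tallest of these, 11.1 at chr7:113270701-113270880, had no peak in replicate 2, and the shared intronic peak was 2.69 and 1.25 high. The distal peak of Cry1 shared by both libraries lay at -36057 bp with heights of 7.46 and 1.46, and that of Dbp in an intron of Sec1 with 6.67 and 1.92.

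At Per1 the distal peaks ran together with transfer RNA genes, which RNA polymerase III reads. RefSeq places 11 tRNA genes within 50 kb of Per1. Of the distal peaks of Per1, 9 of 31 in replicate 1, 7 of 12 among its tallest and 6 of 13 in replicate 2 overlapped a tRNA gene, and 6 of the 12 shared ones did. Over all distal peaks the shares were 0.297%, 0.872% and 1.34%, and at the other 9 clock genes 0 did. The tallest distal peak in each library was over a tRNA-Ser gene: 10.5 at chr11:69110861-69111020 in replicate 1, downstream of Per1, and 5.35 at chr11:69063021-69063260 in replicate 2, upstream. All 11 tRNA genes had a peak in replicate 1 and 8 in replicate 2, where 49.4% and 34.0% of the 403 tRNA genes of the genome did. Left with peaks not over a tRNA gene, Per1 had 22, 5 and 7 distal peaks.

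**Figure D5:**
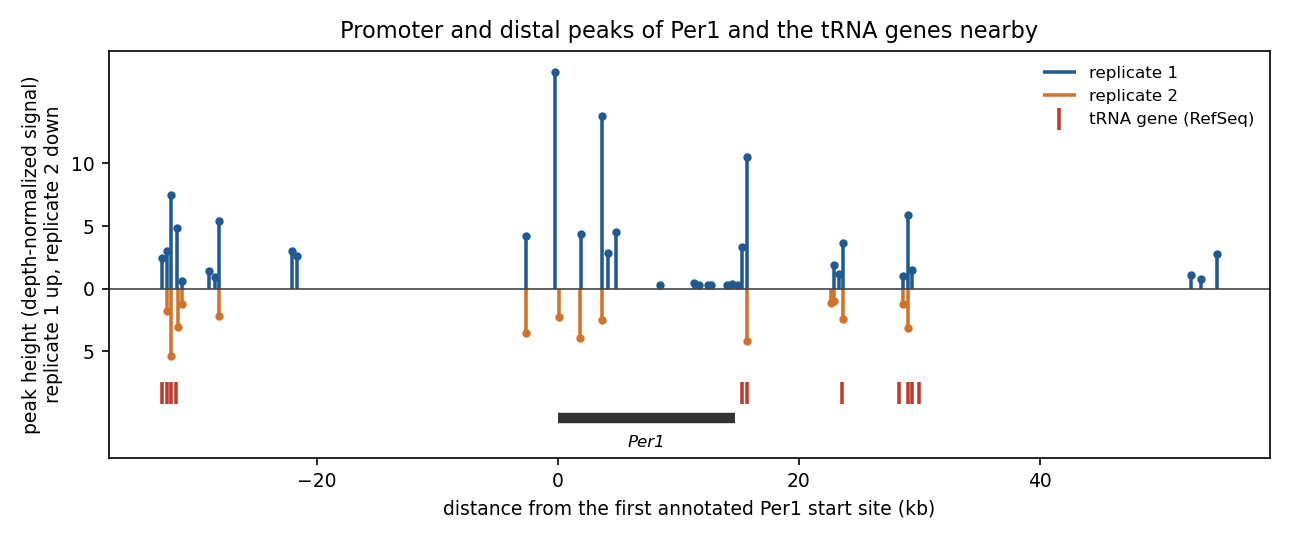
Height of each promoter and distal peak of Per1 (promoter peaks of neighbouring genes are left out) against the distance of its midpoint from the first start site in kb, replicate 1 upward and replicate 2 downward; red ticks are RefSeq tRNA genes and the black bar is Per1. Several of the taller peaks away from Per1 stand over the tRNA ticks, with heights of up to 10.5 and 5.35.

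By 4 measures (tallest promoter height in each library, and distal peaks in replicate 2 and among the tallest of replicate 1) the most similar gene among 11183 was sought for the clock genes. Cry1 was nearest to Zdhhc24 (14.7 and 5.02 high, 1 distal peak in each list), whose promoter peak heights are those of the muscle gene Actn3. Per1 was nearest to Borcs6, its neighbour within 50 kb, which shares distal peaks with it, but at the largest distance of the 10, 0.533 SD units. The nearest to Per2 was Sertad1, to Per3 Mrpl47, to Arntl Rnf166 and to Clock Snu13. The nearest to Bhlhe41 was Gstt2, to Nr1d1 Abt1 and to Dbp D17Wsu92e, with distances from 0.021 (Snu13) to 0.269 (Abt1).

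Of 21 other genes of the clock pathway, 21 had a promoter peak in replicate 1 (66.7% of all genes) and 19 in its tallest peaks (49.6%). In replicate 2 it was 19 (51.4%), and at 17 a peak was shared (45.1%). The tallest in replicate 2 were at Csnk1d (7.67, and 22.0 in replicate 1), a kinase of PER proteins, Btrc (5.78 and 30.6), which targets them for degradation, and Usp2 (5.71 and 17.1), a deubiquitinase. All 3 were taller in replicate 2 than the tallest peak of any of the 10 clock genes. The median tallest height of the 21 was 6.71 in replicate 1, below the 14.7 of the 10 clock genes, and 2.64 in replicate 2, above their 2.37. Their mean number of distal peaks was 5.67, 1.14 and 0.952 in the whole list, the tallest peaks and replicate 2, near that of all genes.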

How the data were processed

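DNase-seq was measured in 2 libraries of 1 group. Per the file lists deposited with the labels, the authors called peaks, FDR intervals and footprints for each library alone, from its filtered alignments on mm10, with no pooling. As for the aligner, callers, versions and cut-offs, none is given in the sources used here. Each deposited peak has a height, a signal that the authors normalized to read depth. For short intervals the authors deposited an FDR (a corrected p-value) of 0.05 or less. The deposited footprints carry the same score in every row, so they were used as intervals only.

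Of the deposited peak lists of each library the shorter was used, with the longer as an alternative. Peaks were assigned by the distance from their nearest base to GENCODE M21 start sites and were shared at 50% overlap of either peak. No peak ran past a chromosome end of the GRCm38 reference. Motif letters were counted where they lay wholly in a peak, with a position matching on both strands counted once. Promoter windows were RefSeq's. Read totals are not used here, so no counting interval could be given. Overlaps, footprint assignment and motif search were tested on simulated data, with bedtools 2.31.1 as reference for intervals. Sequences were read with pysam 0.24.0, tables were handled in Python 3.11.15 with pandas 2.3.3 and numpy 2.4.6, and plots used matplotlib 3.10.9.

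The members, gene lists and motifs were chosen with earlier results of these data known. The text names all 10 members, the genes of the pathway and output lists that had no promoter peak in either library or were among the 3 tallest in replicate 2, markers by list, neighbours within 50 kb, and for each member the nearest gene by 4 measures. The markers were named after their values were seen, and some genes the rule names are not reported here. No test between conditions or over gene lists was run.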

Additional observations from a re-analysis of the deposited data

How the results depend on the processing

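No paired analysis was possible because there was 1 group and no comparison between groups. The 10 of 10 counts of promoter peaks in each library, in both and shared held under every alternative run (longer list, equal number, 1 bp overlap, midpoint distance, merged peaks, taller peaks only, 2 kb and 500 bp limits, basic transcripts), except that 8 genes had a shared peak at 50% overlap of both. Distal sums depended on the settings. In replicate 1, 117 became 41 at equal number, 73 above the median height, 64 within 20 kb and 184 within 100 kb. In replicate 2, 28 became 43 in the longer list, 17 above the median height, 15 within 20 kb, 47 within 100 kb and 15 without Per1. The shared 24 became 38 in the longer list, 12 within 20 kb, 41 within 100 kb and 12 without Per1. With either library left out nothing can be shared, so the shared and both-library counts have no such value. At least 1 distal peak was found at 9 genes in each library, at 10 in replicate 1 of the longer list (3 at Clock), and in replicate 2 at 5 above the median height and 6 within 20 kb. With the promoter limit at 500 bp it was 10 in each library, Clock then having 1 in each. With that limit at 2 kb it was 9 in replicate 1 and 8 in replicate 2. Footprints summed to 102 and 86, to 110 and 89 when any overlap counted and to 113 and 116 in the longer list, where the order of the libraries turns. Inside footprints with 5 bp on each side, motif matches in promoter peaks fell to 1 E-box in replicate 2 (of 5), 3 and 2 E-prime boxes (of 8 and 9), 0 D-boxes in replicate 2 (of 4) and 0 and 0 ROR elements (of 2 and 3). The alternatives without Per1 and without tRNA genes were chosen after seeing the data.

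If the height steps reflect depth, replicate 2, whose step was 1.80 times that of replicate 1, was the shallower library. A site without a peak there was not detected and is not shown to be closed. The phase of the day was not stated.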

Other observations

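Of 11 genes known as outputs or temperature-linked partners of the muscle clock, 10 had a promoter peak in replicate 1 (66.7% of all genes), 7 among its tallest peaks (49.6%) and 7 in replicate 2 (51.4%), and at 6 a peak was shared (45.1%). Ucp3, a mitochondrial carrier of muscle, had none in either library. The tallest in replicate 2 were at Cirbp (6.51, and 20.7 in replicate 1), a cold-inducible RNA-binding protein, Wee1 (3.78 and 21.7), a cell cycle kinase, and Klf10 (3.75 and 21.1), a transcription factor. Their median tallest height was 11.1 in replicate 1 and 2.61 in replicate 2. They had a mean of 7.91 distal peaks in replicate 1, 2.18 among its tallest and 1.55 in replicate 2, between the values of the 10 clock genes and of all genes. The highest count in replicate 1 was 18 at Cirbp, which had 2 in replicate 2.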
